A study of Rattus norvegicus with 6 samples.

Results

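The 9 transporters described here carry drugs, conjugates, bile acids or sterols across the membranes of the intestinal epithelium. They are the rat genes Abcb1a, Abcb1b, Abcc2, Abcc3, Abcg2, Abcg5, Abcg8, Abca1 and Npc1l1. Their probes were found through the RefSeq accession printed on the array for each probe, which gave 11 probes of 41012 and 9 genes of 13438 that could be named. The levels were measured in jejunum of male Sprague-Dawley rats, 6 weeks old and 200 ± 20 g. The S3d group spent 2 h of each of 3 days at 35°C with shaking at 0.1 g, and the control group stayed at 25°C with no shaking. Each group has 3 samples, each on its own 1-colour Agilent array, and each sample is RNA pooled from 3 rats. The labels give 10 rats per group and the methods 6, so whether the 3 pools of a group share rats is not known, and the p-values measure the spread between these pools. The comparison asks which transporter transcripts differ in the jejunum after 3 days of combined heat and shaking.

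In the enterocyte, efflux pumps of the ATP-binding cassette (ABC) family sit mainly in the brush border and return absorbed compounds to the lumen at the cost of ATP. Abcb1a and Abcb1b encode P-glycoprotein, Abcc2 encodes Mrp2, which exports glutathione and glucuronide conjugates, and Abcg2 encodes the breast cancer resistance protein, which exports drugs and sulphated compounds. Abcc3 encodes Mrp3, a pump for conjugates on the blood side of the cell. Sterols enter through Npc1l1, the target of ezetimibe and the only gene here outside the ABC family. They are returned to the lumen by the dimer of Abcg5 and Abcg8, both of which are needed for export, or pass through Abca1 on the blood side to apolipoprotein A-I.

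A level is the log2 processed signal (the spot's brightness after background subtraction) minus the 75th percentile of that array, so that 0 is the 75th percentile. Levels of different probes are not compared with each other. The scanner files and the normalized table deposited beside them disagree on which arrays are control. Each of the table's 6 columns matches the scanner file that carries its replicate number in the opposite group. Every sign given here follows the labels of the scanner files, and by the labels of the table, which give the direction used by the study, each sign turns. The 3 arrays labelled control lay on 1 slide and the 3 labelled S3d on another, scanned 450 days apart, so slide, scan and group cannot be told apart. On control arrays this percentile stood at a processed signal of 415 to 430.0, and on S3d arrays at 1458 to 1558, with no saturated spot.

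Of the 9 transporters, 8 differed between the groups at an adjusted p under 0.05 (limma, Benjamini-Hochberg over 31367 probes tested). Abcb1a, Abcb1b, Abcg2, Abcg8 and Abca1 were higher on the arrays labelled S3d, whereas Abcc3, Abcg5 and Npc1l1 were lower, a direction that turned for these 3 when the arrays were not scaled to each other. Abcc2 was the gene that did not pass. The same threshold was passed by 74% of all probes tested, 39.5% in the higher and 34.5% in the lower direction, so a count of 8 of 9 is read beside that background and is no result about these genes as a group. The groups did not overlap for 8 of the 9, as for 78.3% of all probes tested. Abcb1a is in both counts of 8, although it was not well above background on the control arrays and was tested through the S3d arrays alone. The median log2 fold change of the 9 genes was 1.03, also with Abcb1a at its lower bound, against 0.08 over all probes tested. What follows is therefore the size, spread and order of the single transporters. The plot of levels on each array shows every value.

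**Figure D1:**
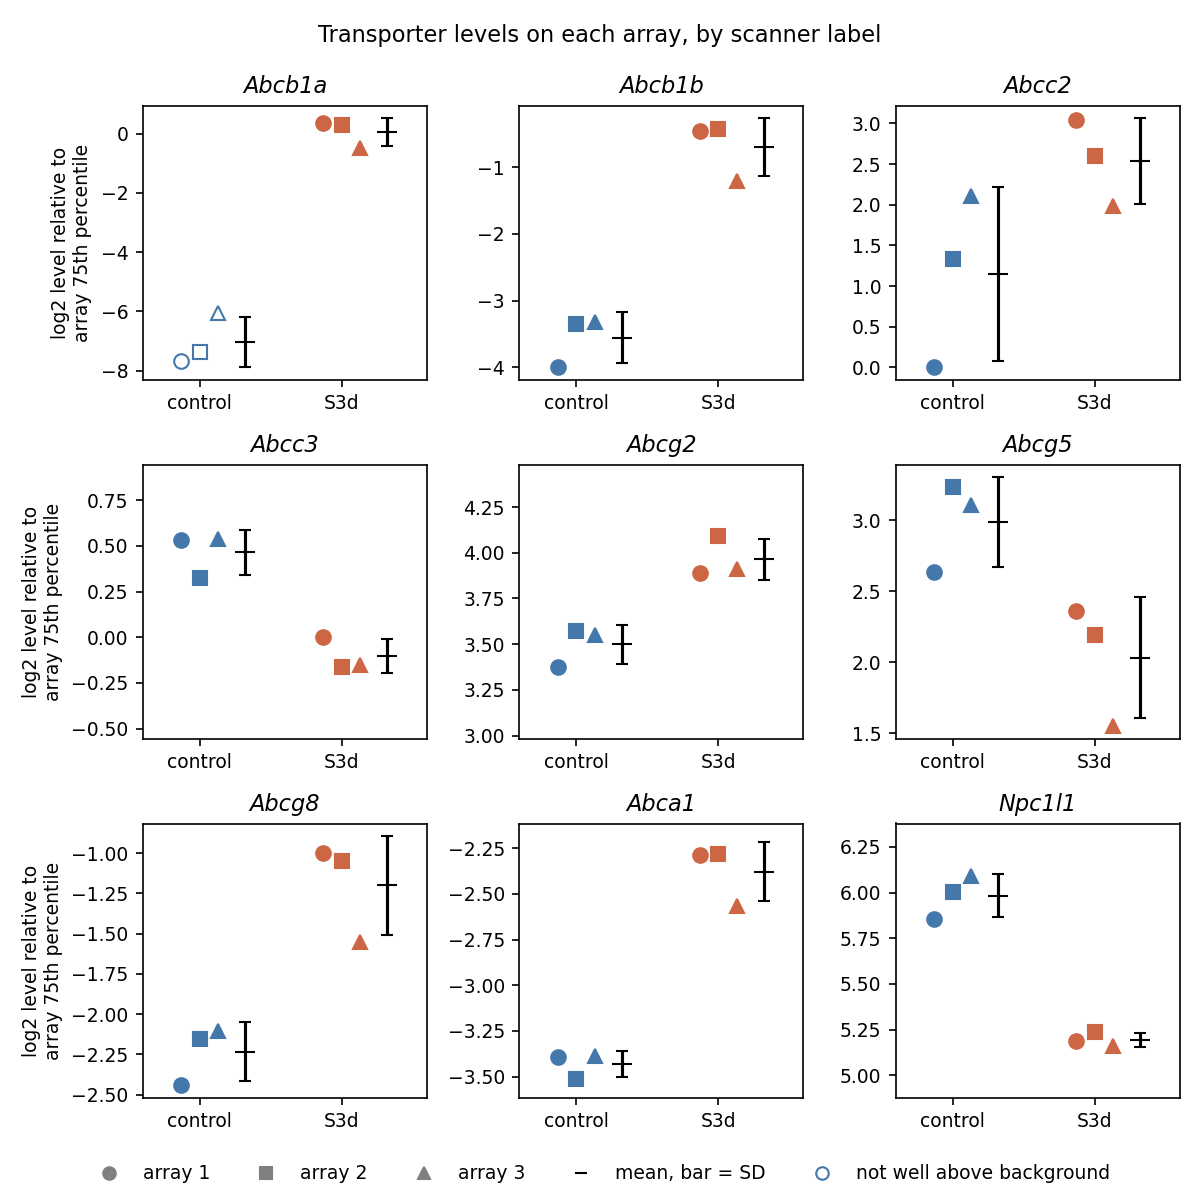
Level of each transporter on each array, as log2 processed signal relative to the array's 75th percentile, with circles, squares and triangles for arrays 1, 2 and 3 and black bars for the mean and SD (n = 3). Open symbols mark signals not well above background. The groups overlap for Abcc2 alone, the range of each vertical axis differs, and without scaling between arrays Abcc3, Abcg5 and Npc1l1 were higher on the arrays labelled S3d.

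The P-glycoprotein pair showed the largest differences after scaling to the 75th percentile. Abcb1a was at -7.67, -7.36 and -6.06 on control arrays 1, 2 and 3 and at 0.37, 0.29 and -0.49 on those labelled S3d. On no control array was the probe well above background, where its processed signal was 2.04 to 6.43, whereas it was 1112 to 1902 on the S3d arrays. The transcript was at least 61.2-fold higher on the arrays labelled S3d, taking for each control array the higher of the probe's own value and the lowest signal among probes well above background. This lower bound is 5.93 on the log2 scale. The measured group means were -7.03 ± 0.85 and 0.06 ± 0.47 (SD, n = 3), and since the probe was not well above background on the control arrays, they give no size beyond the bound. The probe entered the test through the S3d arrays alone, where it is high, so its call adds no separate support.

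Abcb1b was measured well above background on all 6 arrays. Its levels were -4.00, -3.35 and -3.32 on arrays 1, 2 and 3 labelled control and -0.46, -0.43 and -1.20 on those labelled S3d. The groups were far apart, and the lowest value of each lay on control 1 and on S3d 3. The log2 fold change was 2.86 ± 0.28 (SE, 95% interval 2.17 to 3.55, adjusted p = 0.000220, limma), a 7.25-fold difference, and 2.73% of the probes tested moved further. With normexp background correction (offset 50, without 8 spots on control 3 that lay far below their local background) it was 1.46. The offset is larger than every control signal of Abcb1b, which were 25.9 to 43.1.

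With Abcb1a at its bound, the difference between both genes within an array shifted by at least 3.08 log2 units towards Abcb1a, and no test was made of it. Of 5 pairs of transporters compared within arrays, the other 4 were tested. A factor common to a whole array cancels in such a difference, whereas quantile normalization and another background correction can alter it. The genes are close copies of each other, and whether either probe also captures the other transcript was not tested.

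The promoter windows of this pair are shown because both genes were higher on the arrays labelled S3d, with 250 bases before the annotated start and 50 after it (RefSeq, GRCr8, minus strand, 5′ to 3′). Capitals mark matches, on either strand, to the motifs listed after them. The Abcb1a window is chr4:26397599-26397898 and the Abcb1b window chr4:26279980-26280279.
Abcb1a: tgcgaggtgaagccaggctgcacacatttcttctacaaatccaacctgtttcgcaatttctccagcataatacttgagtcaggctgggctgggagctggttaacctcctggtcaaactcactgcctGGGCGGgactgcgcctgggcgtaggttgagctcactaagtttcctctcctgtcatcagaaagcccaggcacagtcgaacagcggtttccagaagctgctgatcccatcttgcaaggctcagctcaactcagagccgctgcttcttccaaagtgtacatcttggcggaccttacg
Abcb1b: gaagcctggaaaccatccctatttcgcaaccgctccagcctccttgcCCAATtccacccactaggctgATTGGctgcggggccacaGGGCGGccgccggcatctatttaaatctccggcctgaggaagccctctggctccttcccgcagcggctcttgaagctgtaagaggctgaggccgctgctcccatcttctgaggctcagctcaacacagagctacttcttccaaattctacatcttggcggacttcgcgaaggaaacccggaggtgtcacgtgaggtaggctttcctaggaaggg

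The motifs searched on both strands were the nuclear receptor half-site AGGTCA, its paired forms DR4 and ER4, which each contain that half-site, the GC box GGGCGG, the CCAAT box CCAAT, the TATA box TATAAA, the GATA factor site GATAAG and the heat shock element GAANNTTC. Windows were given for 8 of the 9 genes, without Abcc3. Each window of the pair held 1 GC box, a motif of 33.1% of all 33469 windows, and that of Abcb1b also held 2 CCAAT boxes, a motif of 37.5%. The longest run of bases that both windows share was 15 long, tacatcttggcggac, and it begins 29 bases after the annotated start of Abcb1a and 17 before that of Abcb1b. The heat shock element, present in 8.59% of all windows, was in the window of Abcg2 alone among the 8 genes, and the half-site, present in 16.2%, in that of Abcc2 alone.

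Abcc2, the brush-border pump for conjugates, was the transporter with the widest spread. Its levels were 0.00, 1.33 and 2.11 on arrays 1, 2 and 3 labelled control and 3.04, 2.59 and 1.98 on those labelled S3d. The groups overlap, since control 3 lay above S3d 3. The log2 fold change was 1.39 ± 0.57 (SE, 95% interval 0.00 to 2.78) and did not pass the threshold (adjusted p = 0.0654, limma). It was 0.82 without control 1 (adjusted p = 0.115) and 1.87 without control 3 (adjusted p = 0.0216), and with an intensity trend in the variance its adjusted p was 0.0394.

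The array prints the Abcc2 probe in 10 spots, so the reading error of a spot can be given as well. The SD over the 10 spots was 0.05 to 0.08 log2 units on each array, and the SD of the level was 1.07 between the control arrays and 0.53 between the S3d arrays. From control 1 to control 3 the level spanned 2.11 log2 units, a 4.32-fold range within 1 group. Of all probes tested, 99.3% had a smaller SD among the control arrays. The spot SD leaves out labelling, hybridisation and differences between rats.

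**Figure D2:**
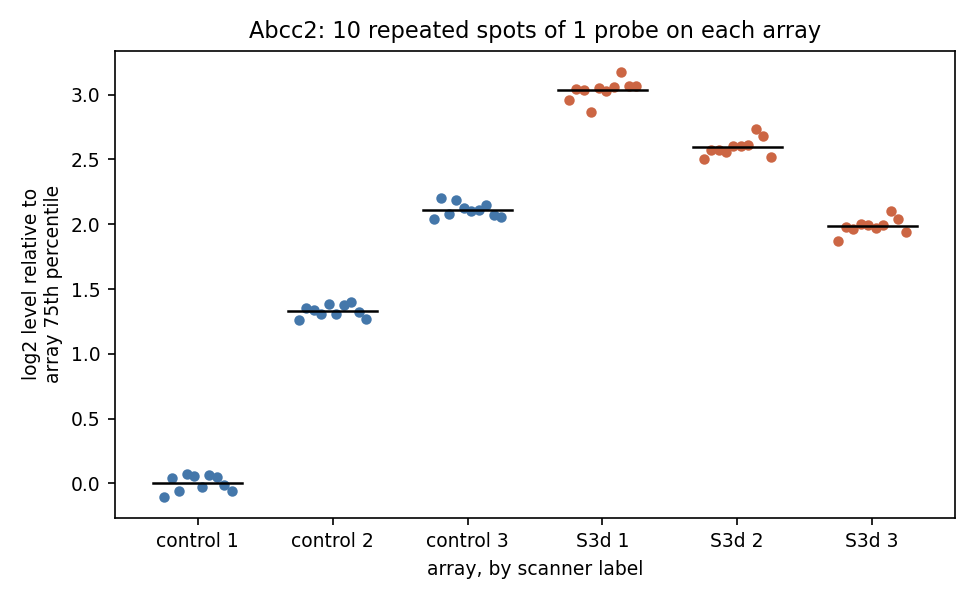
Level of Abcc2 in each of its 10 spots on each array, as log2 processed signal relative to the array's 75th percentile, with a black line at the array's mean. The spots of an array lie close together (SD at most 0.08), while the means of the control arrays run from 0.00 to 2.11 and those of the S3d arrays from 1.98 to 3.04.

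Abcc3, the basolateral counterpart, was lower on the arrays labelled S3d by both of its probes. By the brighter probe it was at 0.53, 0.32 and 0.54 on the control arrays and at 0.00, -0.16 and -0.15 on the S3d arrays, and the groups did not overlap. The difference was -0.57 ± 0.09 on the log2 scale (SE, adjusted p = 0.00176, limma) by this probe and -0.40 ± 0.08 (adjusted p = 0.00384) by the other, and both turned to above 0 without scaling (1.28 and 1.45). Within arrays the difference between Abcc2 and Abcc3 shifted by 1.96 ± 0.68 log2 units towards Abcc2 without overlap (exact two-sided permutation test, p = 0.1, the smallest that 3 against 3 arrays allow, and 0.133 adjusted over the 4 pairs tested).

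Abcg2 changed least among the genes that were higher with this scaling, whereas with normexp without the 8 spots its 0.52 lay above Abcg8 and Abca1. It was at 3.37, 3.57 and 3.55 on the arrays labelled control and at 3.89, 4.09 and 3.91 on those labelled S3d. All 3 S3d values were above all control values, by a small margin. That is a log2 fold change of 0.47 ± 0.09 (SE, 95% interval 0.24 to 0.69, adjusted p = 0.00423, limma), a 1.38-fold difference that 62.5% of the probes tested exceeded in either direction. Its size depended on the scaling, with 0.81 after quantile normalization and 0.26 after median centring, above 0 in each.

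The sterol exporters Abcg5 and Abcg8 moved in opposite directions. Abcg5 was at 2.63, 3.23 and 3.11 on the arrays labelled control and at 2.36, 2.19 and 1.55 on those labelled S3d. The gap between control 1 and S3d 1 was small beside the spread in either group. Its log2 fold change was -0.96 ± 0.26 (SE, 95% interval -1.59 to -0.33, adjusted p = 0.0154, limma), and it turned to 0.89 without scaling between arrays. The call was lost without control 2 (adjusted p = 0.0512) and by the analysis of variance that the methods name (adjusted p = 0.0510).

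Abcg8 was at -2.44, -2.16 and -2.10 on the arrays labelled control and at -0.999, -1.05 and -1.55 on those labelled S3d. The groups did not overlap, and S3d 3 was the nearest of its group to the control arrays. The log2 fold change was 1.03 ± 0.18 (SE, 95% interval 0.60 to 1.47, adjusted p = 0.00243, limma), a 2.04-fold difference, and it was 0.49 with the same normexp. The other Abcg8 probe was not well above background on any array and was not tested. The within-array difference between Abcg8 and Abcg5 shifted by 1.99 ± 0.12 log2 units, 3.97-fold, and its groups did not overlap (exact permutation test, p = 0.1, adjusted 0.133). It was 1.72 after quantile normalization, 1.26 with normexp without the 8 spots and 0.45 with normexp on all spots. Its SD within a group, 0.16 and 0.13, was below that of Abcg5 alone, 0.32 and 0.43, and both genes were lowest on control 1 and on S3d 3.

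Both genes lie head to head on chromosome 6, and their annotated starts are 206 bases apart. The promoter window of Abcg5 is shown because it shares 295 of its 300 bases with that of Abcg8, whose transcript runs the other way (RefSeq, GRCr8, chr6:15717686-15717985, plus strand, 5′ to 3′).
Abcg5: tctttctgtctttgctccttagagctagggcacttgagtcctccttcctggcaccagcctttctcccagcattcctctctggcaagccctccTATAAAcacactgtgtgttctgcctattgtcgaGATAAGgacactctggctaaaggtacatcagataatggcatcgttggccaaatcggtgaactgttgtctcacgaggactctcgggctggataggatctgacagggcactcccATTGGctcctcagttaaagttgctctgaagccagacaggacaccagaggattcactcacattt
Capitals mark, in this order, a TATA box, a GATA site and a CCAAT box read on the other strand, motifs of 14.2%, 7.05% and 37.5% of all windows. The TATA box match begins 158 bases before the start of Abcg5, and no GC box or half-site was among the letters of this window.

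Npc1l1, the sterol importer of the brush border, was at 5.86, 6.00 and 6.09 on the arrays labelled control and at 5.19, 5.24 and 5.16 on those labelled S3d. Its values were tight, with an SD of 0.12 and 0.04, and the groups lay well apart. Npc1l1 had a log2 fold change of -0.79 ± 0.08 (SE, 95% interval -0.98 to -0.59, adjusted p = 0.000251, limma), a 1.73-fold difference. After quantile normalization it was -0.21 (adjusted p = 0.0750) and no longer passed, and without scaling it was 1.06. Against Abcg8 within arrays, Npc1l1 fell behind by 1.82 ± 0.17 log2 units (exact permutation test, p = 0.1, adjusted 0.133), and by 1.15 after quantile normalization, 1.10 with normexp without the 8 spots and 0.22 with normexp on all spots. The difference between Abcg5 and Npc1l1 shifted by -0.17 ± 0.27 with overlapping groups (exact permutation test, p = 0.6, adjusted 0.6), and by -0.57 after quantile normalization.

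Abca1, the basolateral sterol exporter, was at -3.39, -3.51 and -3.39 on the arrays labelled control and at -2.29, -2.28 and -2.57 on those labelled S3d. The groups were separate and narrow. Its log2 fold change was 1.05 ± 0.10 (SE, 95% interval 0.81 to 1.30, adjusted p = 0.000188, limma), a 2.07-fold difference. The gene was dim, with a processed signal of 37.4 to 41.1 on the control arrays, under the normexp offset of 50, and with that normexp the value was 0.09 and did not pass (adjusted p = 0.392).

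**Figure D3:**
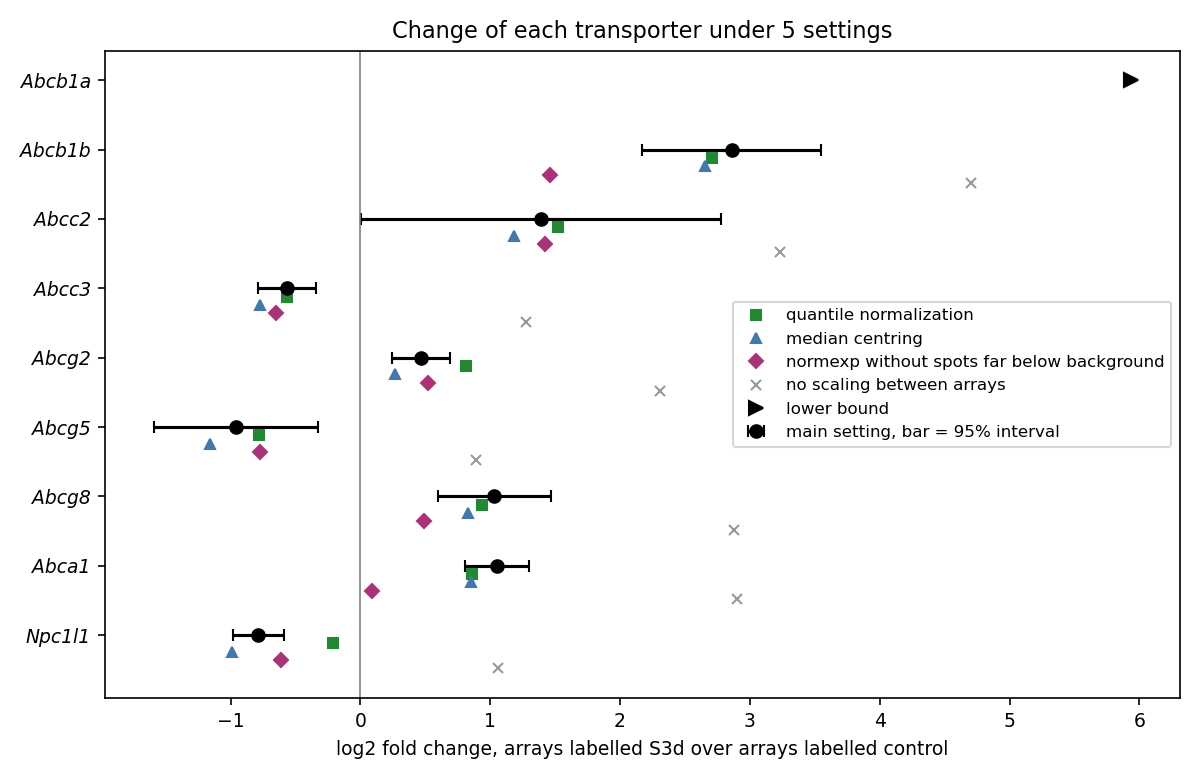
Log2 fold change of each transporter, arrays labelled S3d over arrays labelled control, with the 95% interval of the limma fit in black and coloured symbols for 4 other settings. The triangle marks the lower bound of Abcb1a (5.93). Of the other 8 genes, all lie above 0 without scaling between arrays, while in the other 4 settings Abcc3, Abcg5 and Npc1l1 lie below 0 and the other 5 above it.

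Over all probes, an adjusted p under 0.05 was reached by 70.6% after quantile normalization (7 transporters called), 74% after median centring (8), 96% without scaling (9), 70.1% in the deposited table (7), 5.59% with normexp on all spots (0) and 81.5% with normexp without those 8 spots (8). The processed signals were brighter on the arrays labelled S3d, and without scaling the median log2 difference of all probes was 1.93. Relative to that median, Abcc3 was at -0.65, Abcg5 at -1.04 and Npc1l1 at -0.87. All 9 genes kept their side of the median of all probes with quantile normalization, median centring, no scaling, and normexp without those 8 spots. Normexp on all spots turned Abcc3, Abcg5 and Npc1l1 and left no transporter past the threshold. Among changed probes (adjusted p under 0.05 and a fold of at least 1.5, 16452 in all, 52.5% of those tested), 55.7% were higher on the S3d arrays, against 43.2% after median centring and 20.2% with normexp without those spots. In both of these the members' split was 5 higher and 3 lower, beside 31.7% and 42.3% of all probes called higher and lower after median centring and 21% and 60.5% with that normexp.

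Many of the transporters had the same lowest array inside a group. Control 1 was the lowest control array for 6 of the 8 genes other than Abcb1a, which is not well above background there, and S3d 3 the lowest S3d array for 7 of 9, against 36.2% and 32.8% of all probes tested. Control 3 was the highest control array for 6 of the 8, against 34.1% of all probes tested. These arrays were picked after the values were seen, and no test was made of the shared order. Abcb1b, Abcc2, Abcg5 and Abcg8 had the wide deviations, as had Abcb1a on the S3d arrays, and Abcc3, Abcg2, Abca1 and Npc1l1 stayed within 0.19 of their group mean on each array. The bile acid carrier Slc10a2, a marker of ileum, ran the other way on these arrays, at 1.79, 1.32 and 1.01 on the control arrays and -1.35, -1.48 and -0.27 on the S3d arrays. Fabp6, the ileal bile acid binding protein, did not run with it, at -0.89, -0.33 and -0.51 and at -2.92, -3.15 and -3.76. The summed linear level of the smooth muscle markers, described below with the others, had the order of Slc10a2. It was 140.7, 131.5 and 116 on the control arrays and 113.8, 107.5 and 127.8 on the S3d arrays. The sum of the crypt markers had that order too, over a narrower range. The sum of the villus markers was lowest on control 1 (2941) and on S3d 3 (1298). The part of intestinal segment or of tissue layers in these values was not tested.

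**Figure D4:**
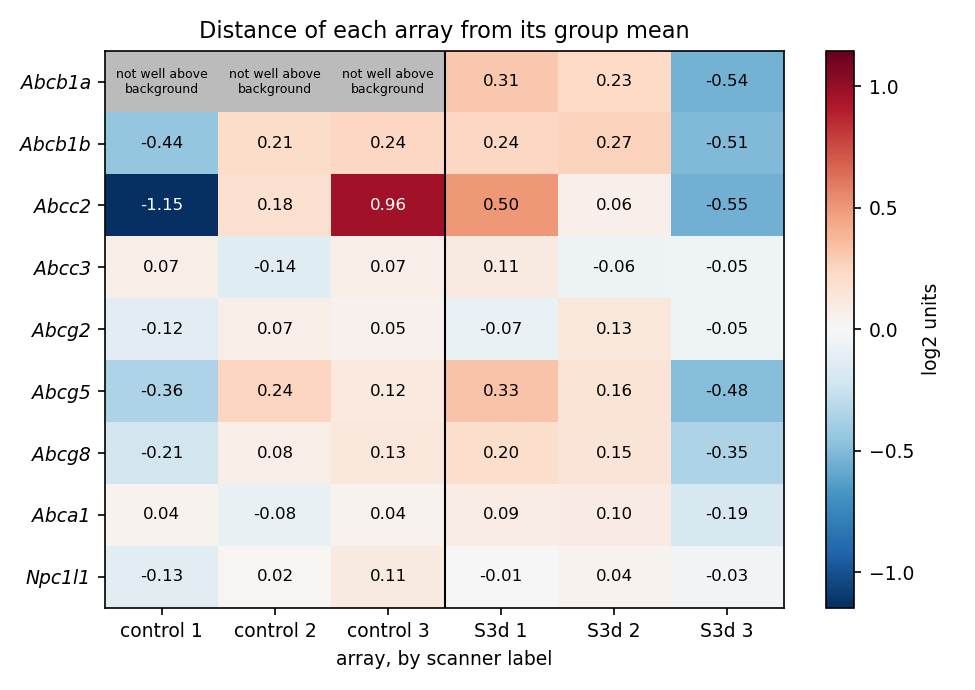
Distance of each array from the mean of its group in log2 units, red above and blue below, with the value in each cell and grey where Abcb1a was not well above background. On S3d 3 all 9 values are below 0, and on control 1 the lowest value is that of Abcc2 (-1.15).

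Markers of cell types moved with the groups as well. All 9 villus enterocyte markers measured were well above background on each array, and their summed linear level, in multiples of the 75th percentile, was 2941 to 3285 on the arrays labelled control and 1298 to 1344 on those labelled S3d, with 7 of 9 lower and 1 higher. After quantile normalization 2 were lower and 3 higher. In bulk tissue, fewer cells of a type and less RNA per cell cannot be told apart. The 6 crypt and proliferation markers summed to 44.3 to 48.6 and 49.8 to 51.2, with 4 higher, among them Olfm4 (log2 fold change 2.87), and with Cdk1 (-0.53) and Ascl2 (-0.48) lower. Without Olfm4, at 1.03 to 1.30 and 7.40 to 8.97, the other 5 summed to 43.3 to 47.5 and 41.2 to 43.8, and after quantile normalization 3 of the 6 were higher and 1 lower. The 3 ileal markers summed to 18.8 to 20.4 and 10.4 to 11.8, all 3 lower. The 5 pancreatic acinar markers summed to 1316 on S3d 1 and to 0.94 to 2.88 on the other 5 arrays, with none of the 4 tested called. Without S3d 1 the same 8 transporters were called, with Abcg5 at -1.12 and Npc1l1 at -0.78. The part of the other marker changes in the transporter values was not tested.

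Markers of further cells were mixed. Of the tested markers, 3 of 5 goblet and Paneth cell genes were lower (summed level 932 to 978 and 379 to 396), 5 of 7 leukocyte genes lower and 1 higher (72.6 to 77.7 and 63.2 to 67.1), and both red blood cell genes lower (2.89 to 3.33 and 0.34 to 0.63). Smooth muscle genes gave 1 higher and 2 lower of 5 (116 to 141 and 108 to 128), endothelial genes 3 higher and 1 lower of 6 (6.47 to 7.96 and 8.68 to 8.98), and enteroendocrine genes 1 higher and 2 lower of 4 (124 to 136 and 72.2 to 79.2). Enteric neuron and glia genes gave 1 higher of 3 (1.08 to 1.16 and 1.14 to 1.30), and hepatocyte genes 2 higher and 1 lower of 3 (2.10 to 2.15 and 3.81 to 4.04). Of the 5 hepatocyte genes with a probe, 4 were well above background on S3d 2 and S3d 3 and 3 on each other array. Alb and Tat were not tested, and Tat was not well above background on any array. After quantile normalization the counts higher and lower were 2 and 2 for goblet and Paneth cells (median 0.07, against -0.67), 2 and 4 for leukocytes, 2 and 2 for smooth muscle, 4 and 1 for endothelium, 2 and 2 for enteroendocrine cells and 1 and 2 for neurons and glia. Without scaling most markers turned upward, with 8 of 9 villus, 3 of 5 goblet and Paneth and 6 of 7 leukocyte genes higher.

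Of the rest of the ABC superfamily, 32 of 40 genes listed had a probe and 29 were tested, while Abca17, Abca5 and Abcc12 were not well above background on any array. In all, 12 were higher, 11 lower and 6 did not pass, with a median of -0.02. With normexp without the 8 spots 7 were higher and 14 lower, after median centring 9 and 14, and without scaling 28 and 0. Cftr, the chloride channel of the crypt, fell by 1.64 on the log2 scale (adjusted p = 3.95e-05, limma), and Abcf1, a ribosome-associated member that is no transporter, fell by 1.25 (-0.83 after quantile normalization). Abcg4, a sterol exporter best known from brain, rose by 1.75 with a wide SD of 1.10 among the S3d arrays, and Abcd2, a peroxisomal fatty acid transporter, rose by 1.30. With normexp without the 8 spots, Abcg4 and Abcd2 were at -0.07 and -0.08 and did not pass, and after quantile normalization Abcg4 did not pass (adjusted p = 0.0715). Without scaling, every gene named here or from the lists that follow as falling was above 0, except Fabp6, Ppard, Slc10a2 and Srebf2, and none changed its side of the median of all probes.

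Among nuclear receptors and transcription factors that act on ABC genes, 21 of 24 were tested, 4 were higher, 12 lower and 5 not called, with a median of -0.64. Nfe2l2, the factor of the antioxidant response, rose by 1.82 (adjusted p = 1.36e-05, limma). Ppard fell by 2.16, Srebf2, which drives genes of cholesterol synthesis and uptake, fell by 1.98, and Gata6 fell by 1.76. The oxysterol receptors Nr1h3 and Nr1h2 and the xenobiotic receptor Nr1i2, named for their known role in Abca1, Abcg5, Abcg8 and P-glycoprotein regulation after their values were seen, fell by 0.64, 0.85 and 0.49. After quantile normalization they were at -0.30, -0.56 and -0.33, and with normexp without the 8 spots at -0.01, -0.38 and -0.03 relative to the median of all probes. Other receptors of the list went the other way. Besides Nfe2l2, the genes called higher were Nr1i3, Rxrg and Nr1h4, which rose by 1.66, 0.89 and 0.53.

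Of 25 sterol handling partners, 22 were tested, 9 were higher, 8 lower and 5 not called (median -0.12), against 11 higher and 5 lower after quantile normalization (median 0.11). Cav1, the coat protein of caveolae, rose by 2.37 (1.53 with normexp without the 8 spots), the fatty acid receptor Cd36 by 1.64 and Mylip, which marks the LDL receptor for degradation, by 1.46, whereas Flot2 fell by 1.77. Bile acid and organic ion carriers gave 3 higher, 7 lower and 7 not called of 17 tested (median 0.15), with Fabp6 falling by 2.70 (adjusted p = 0.000173, limma), Slc10a2 by 2.41 and Slc22a18 by 1.10, and the carnitine carrier Slc22a5 rising by 1.04. Scaffolds of the brush border gave 2 higher, 5 lower and 3 not called of 10 (median -0.14), against 4 higher and 3 lower after quantile normalization (median 0.04). The PDZ proteins Nherf1 and Pdzk1, which anchor apical transporters, fell by 0.45 and 0.31. Stx3, which docks apical vesicles, fell by 0.66, and Vil1, the actin bundler of microvilli, by 0.29, with Nherf1 at -0.26, Vil1 at 0.24 and Pdzk1 not called after quantile normalization, and neither Vil1 nor Pdzk1 called with normexp without the 8 spots. Apoa4, Slc15a1, Vil1, Fabp6, Slc10a2 and Slc51a stand both in these lists and among the markers. The shares called were 79.3%, 76.2%, 77.3%, 58.8% and 70.0% in the order given, beside 74% of all probes tested.

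The genes most like each transporter but Abcb1a, whose control values are not well above background, were sought by the root-mean-square difference over the 6 arrays after centring each gene on its own mean, among 10108 genes or more well above background on each array. Abcb1b lay nearest to Fmo1 (0.16 log2 units), Aqp8 and Ugt2a3, and Abcc2 to Kcnj13 (0.30), Cyp2b15 and Slc22a3. Abcg5 lay nearest to Gchfr (0.16), Tmigd1 and Ldb3, and Abcg8 to Dusp13b (0.04), P2ry1 and Ccdc43. Abca1 was most like Iqsec3 (0.04), Kmo and Ppp2r2b, and Npc1l1 most like Sirt5 (0.03), Chmp4c and Prdx5. Abcc3 lay nearest to Ankrd13d (0.03), Rbm18 and Htr7, and Abcg2 to Ccar1 (0.03), Stard3nl and Pyroxd1.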

How the data were processed

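Expression was measured in rat jejunum on 6 arrays of 1 colour, 3 per group. The authors deposited the scanner output of Agilent Feature Extraction 10.7.3.1, whose intensity values used here are the processed signal, background-subtracted and not yet made comparable across arrays, and the median signals of spot and local background. They also deposited 1 table of log2 values, quantile-normalized across its 6 columns. Its program is not given in the sources used here. No sample was reassigned where labels of both sources disagree.

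Control spots and outlier spots were left out, repeated spots averaged, and the log2 signal centred on each array's 75th percentile. A probe was tested if each of the 3 arrays of either group had it well above background (31367 of 41012, of which 3576 passed through S3d arrays alone, Abcb1a among them). Among the members, 10 of 11 probes and all 9 genes were tested. The test was that of limma 3.58.1 (lmFit, eBayes, no block, in R 4.3.3), with p-values adjusted by Benjamini-Hochberg over the whole set, and the brightest probe stood for a gene. Tested on simulated data with 200 of 31137 probes changed, the fit recovered 66.0% at a log2 change of 1 and 93.0% at 2, with 4 false calls. The simulated noise was independent between probes and held no slide or scan effect. The simulation therefore gives no rate of false calls for the real arrays, where slide, scan and group cannot be told apart. Exact permutation tests over arrays and sums were run in Python 3.11.15 (numpy 2.4.6, pandas 2.3.3, scipy 1.17.1). The number of arrays limits the precision.

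Probes were named through their RefSeq accession in the RefSeq table of GRCr8. The members, lists and pairs were chosen with earlier results of these data known. Named are all members, up to 4 genes per list with the largest change among those called, above background on each of 6 arrays and with separate groups, and the 3 genes most like each member except Abcb1a. Outside this rule, Nr1h2, Nr1h3 and Nr1i2 were added after their values were seen, and Nr1i3, Rxrg and Nr1h4 were set beside them. As alternatives, median centring, quantile normalization, no scaling, normexp (offset 50, on the median signal), other filters, the deposited table, outlier spots kept, array weights, an intensity trend, replicate number as a block, the methods' analysis of variance per probe, the mean over probes, other thresholds, and each array left out were run. Normexp without 8 spots far below their background was added after seeing the data.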

Additional observations from a re-analysis of the deposited data

How the results depend on the processing

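Leaving out 1 array at a time gave 7 to 9 transporters called and 15985 to 16455 changed probes. Over these, the log2 fold change ran from 2.64 to 3.11 for Abcb1b, 0.82 to 1.87 for Abcc2, -1.14 to -0.72 for Abcg5 and 0.93 to 1.21 for Abcg8. Abcg5 lost its call without control 2 and Abcc2 gained one without control 3, and no other member call changed. The replicate number as a block gave 16314 changed probes and 8 transporters, with no member call changed, but does not pair the samples, since the deviations of equal numbers correlated at 0.02, 0.02 and -0.05. Without scaling, 28900 probes changed (28565 of them higher), all 9 transporters were called, and Abcc3 (1.28, other probe 1.45), Abcg5 (0.89) and Npc1l1 (1.06) reversed. The deposited table, by its own labels, called 7 transporters, without Abcc2 and Npc1l1. Through its exchanged labels all 9 genes reversed: Abca1 -0.85, Abcb1a -6.96, Abcb1b -2.71, Abcc2 -1.52, Abcc3 0.56 (other probe 0.51), Abcg2 -0.81, Abcg5 0.78, Abcg8 -0.94 and Npc1l1 0.21. Normexp as planned called 0 transporters by limma (1752 changed probes), with Abcb1a, Abcc2, Abcc3 and Abcg2 under 0.05 before adjustment, and reversed Abca1 (-0.52). Its fitted background mean was -841 on control 3 and -12.8 to -5.51 on the other 5 arrays, and -10.6 on control 3 once 8 of its 45018 spots were left out, after which 16193 probes changed and 8 transporters were called, Abcc2 in place of Abca1. The share higher among them was 20.2%. Across member probes and settings, 177 values kept direction and call, 12 lost the call, 4 gained one and 15 reversed. Among these 15 are all 10 member probes tested in the deposited table, which turned through its labels and not through processing. For Abcb1a, whose control signals are not well above background, a fitted value gives a direction and no size.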
